A study of Mus musculus with 24 samples.

Results

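The circadian clock genes described here are the activators Arntl and Clock, the period genes Per1, Per2 and Per3, the nuclear receptor genes Nr1d1 and Nr1d2, the D-box factor genes Dbp and Tef, and the repressor gene Ciart. They were taken by symbol from a table of 15524 genes, which held all 10, and none was lost to a filter on low values because no filter was applied. Their RNA was taken from whole lumbar cord of 24 mice and read by MARS-seq, a bulk method that captures the end of polyadenylated transcripts. The diseased mice were SOD1-G37R, which carry a human mutant SOD1 transgene and model late-onset amyotrophic lateral sclerosis, and their controls were non-transgenic (NT) littermates.

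Of the 24 mice, 4 were SOD1-G37R males given the AAV-PHP.eB-MIF vector by tail vein after disease onset (MIF-treated), 10 were untreated SOD1-G37R mice and 10 were untreated NT mice. Untreated mice came from 2 experiments, the first with 3 females and 3 males per genotype and the second with 4 males per genotype. The MIF-treated males were set beside experiment 2 because their label codes follow its codes, and no source used here gives their experiment. The authors describe the 10 untreated SOD1-G37R mice they sequenced as symptomatic. The SOD1-G37R line was bred with C57BL6, and the labels give neither age nor the time of day at which tissue was taken. The paper gives an approximate age for its symptomatic SOD1-G37R mice as a group, and no age for single sequenced mice. Mif itself ran between 9.57 and 10.02 on the log2 scale in the 4 MIF-treated males, between 9.53 and 9.78 in the 4 untreated SOD1-G37R males of experiment 2 and between 9.58 and 9.91 in the 4 NT males. These ranges overlap, and as it is not known whether transcripts of the vector were counted, they do not check the treatment.

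The clock is a feedback loop that runs in nearly every cell. ARNTL (BMAL1) and CLOCK pair and switch on the Per, Cry, Nr1d and Dbp genes through E-box sequences, the PER and CRY proteins then silence that pair, and the NR1D (REV-ERB) receptors silence Arntl through RRE sequences. In a mouse tissue sampled around the clock, Arntl therefore peaks nearly opposite to Nr1d1, Dbp and the Per genes, and DBP, TEF and HLF, which bind D-box sequences that NFIL3 also binds, carry the rhythm to output genes.

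These 3 control sequences were looked for in the promoters of the members, and those found are shown because they are the letters through which the loop above is known to close. The windows ran from 250 bases before to 50 bases after a start of transcription, on both strands, in RefSeq for GRCm38.p6, and a gene with several starts has several windows. The table held 9 of the 10 members, Per2 being the one left out. The E-box CACGTG was present in 7.15% of all 32851 promoters, which belong to 8.093% of 27025 genes, and in promoters of 3 members, Per1 (1 of its 2), Tef (both) and Ciart. The D-box, TTATGTAA or TTACGTAA, was in 1.056% of all promoters (1.232% of genes) and in that of Per3. The RRE, read as AANTN followed directly by GGTCA, was in 0.6058% of all promoters (0.7142% of genes) and in 1 of the 2 of Arntl. Each line below gives 30 bases, 5′ to 3′ on the gene's strand, with the motif in capitals.
Tef, first promoter, chr15:81802534-81802563, plus strand: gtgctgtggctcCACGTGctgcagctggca
Tef, other promoter, chr15:81811264-81811293, plus strand: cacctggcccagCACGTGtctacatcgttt
Per1, chr11:69098771-69098800, plus strand: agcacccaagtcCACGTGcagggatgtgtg
Ciart, nearest of 3 sites to the start, chr3:95882255-95882284, minus strand: cgtgcagaaccgCACGTGtctgggaggggg
Per3, chr4:151044852-151044881, minus strand: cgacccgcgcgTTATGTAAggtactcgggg
Per3, chr4:151044805-151044834, minus strand: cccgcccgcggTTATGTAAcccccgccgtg
Arntl, chr7:113207528-113207557, plus strand: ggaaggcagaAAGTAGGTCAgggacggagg
Counted from the start of its own window's transcript, the Tef E-boxes began at -127 and -138, that of Per1 at -166, those of Ciart at -116, -58 and -44, and the Arntl RRE at 27. The other Tef promoter and the Per1 promoter shown belong to starts that lie well inside the gene. A match is a run of letters and not a measured binding site, and the windows of Clock, Nr1d1, Nr1d2 and Dbp held none of these letters.

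All values below are log2 levels as deposited by the authors, after their removal of the difference between experiments. The median level over all genes ran from 4.15 to 4.22 in MIF-treated mice, from 4.15 to 4.23 in untreated SOD1-G37R mice and from 4.08 to 4.17 in NT mice, so SOD1-G37R and NT mice overlapped in a narrow stretch and the SOD1-G37R medians lay mostly higher. Read totals per mouse are not analysed here, and the depth behind each value is therefore unknown. Over the 24 mice, Tef averaged 7.55, Nr1d1 7.46 and Dbp 7.21, which lay above 89.6% to 91.9% of all genes. Per1 averaged 5.48, Arntl 3.94, Ciart 3.52, Nr1d2 3.31, Per3 2.70, Per2 1.80 and Clock 1.58. The transform behind the scale is not stated, and differences of genes at low levels, such as Clock and Per2, may be understated. Defining markers of neurons, astrocytes, oligodendrocytes, microglia and endothelial cells were all measured.

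**Figure D1:**
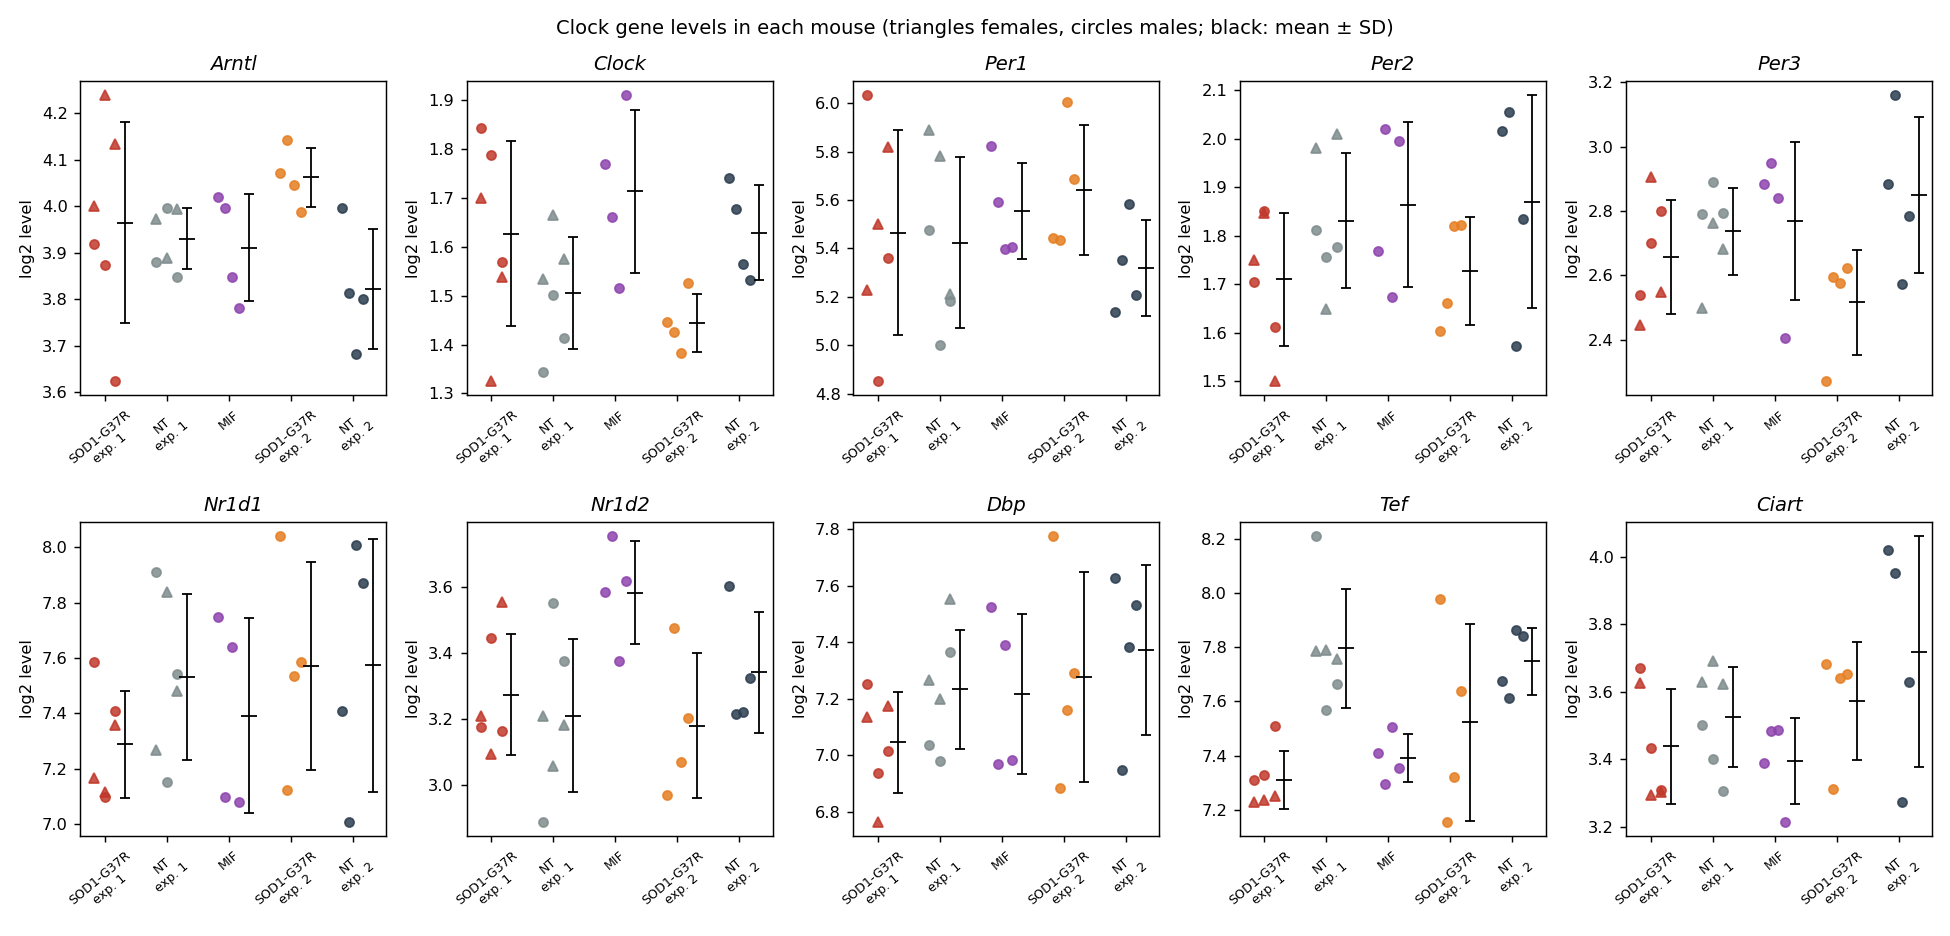
Log2 level (vertical axis) of each clock gene in each of 24 mice, by group; triangles are females, circles males, and black bars the mean with its SD. Tef lies lower in all 6 SOD1-G37R mice of experiment 1 than in the 6 NT mice beside them, and in all 4 MIF-treated mice than in the 4 NT males of experiment 2.

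The first comparison asked whether clock genes differed in the diseased cord. One member, Tef, fell in SOD1-G37R mice, and the other 9 did not pass the test. Tef had a lowest level of 7.16, a median of 7.31 and a highest of 7.98 in 10 SOD1-G37R mice, against 7.57, 7.77 and 8.21 in 10 NT mice. The genotypes overlapped through 2 SOD1-G37R males of experiment 2, male 1 at 7.98 and male 4 at 7.64. The difference was -0.38 ± 0.09 (SE), with an adjusted p of 0.00318 by limma over all genes. Of the 10 members, 1 was called, against 26.5% of all 15524 genes called in either direction and 11.8% called lower, so a call was no more frequent among clock genes than in the table at large. Median centring of each mouse changed the split of calls over all genes to 1645 higher and 2945 lower, beside 2290 and 1830 without it. The median difference of the members was -0.12, beside 0.00058 over all genes, and 8 of the 10 had a negative sign.

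Tef encodes a PAR bZIP activator of D-box genes. Its level separated the genotypes in each sex of experiment 1. The 3 SOD1-G37R females lay at 7.23, 7.24 and 7.25, against 7.79, 7.79 and 7.76 in the 3 NT females. The 3 SOD1-G37R males lay at 7.31, 7.33 and 7.51, against 8.21, 7.57 and 7.66 in the 3 NT males. With 3 mice a side such gaps are common. In these males 14.8% of all genes lay higher without overlap, and the share lying lower is not given here. The fit of experiment 1 alone gave -0.49 ± 0.10 (adjusted p = 0.0016 by limma), where 24.2% of all genes were called, 11.1% lower, and 4.72% had SOD1-G37R mice all below NT mice.

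In experiment 2 the 4 SOD1-G37R males had Tef levels of 7.98, 7.16, 7.32 and 7.64, against 7.67, 7.61, 7.86 and 7.84 in the 4 NT males. The groups overlapped, and the difference of -0.22 ± 0.15 did not pass (adjusted p = 0.503 by limma). Without SOD1-G37R male 1 it was -0.38 (adjusted p = 0.147). In the 14 untreated males of both experiments the Tef difference was -0.31 and no longer passed (adjusted p = 0.101), so the call did not stand without the females. The difference between the experiments in males was 0.21 ± 0.25 (adjusted p = 0.999). In bulk tissue, fewer cells that express a gene and less RNA per cell cannot be told apart.

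Several other measures moved beside Tef. Summed neuron markers had levels of 11.06 to 11.76 in SOD1-G37R mice, 11.22 to 11.98 in MIF-treated mice and 11.85 to 12.39 in NT mice, and 6 of 8 neuron markers fell in SOD1-G37R mice. Of the microglia markers 4 of 6 rose, with a summed level of 11.39 to 12.20 in SOD1-G37R mice and 9.74 to 10.49 in NT mice, and of the astrocyte markers 4 of 6 rose, at 12.79 to 13.44 against 11.89 to 12.19. The 5 oligodendrocyte, 4 endothelial and 3 blood markers had no call, though the summed blood level was 11.0 in SOD1-G37R male 1 and 9.86 in SOD1-G37R male 2, against 5.75 to 8.49 in the other 8 SOD1-G37R mice. Within subgroups of mice alike in sex, genotype, treatment and experiment, Tef had r = -0.29 with the neuron sum over 24 mice. Its r was -0.76 with the sum of the Schwann cell and root markers, of which 2 of 3 were measured and Pmp22 makes up nearly all. That sum ran from 6.81 to 7.29 in SOD1-G37R mice and from 6.73 to 7.31 in NT mice. Their part in the Tef result was not tested.

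**Figure D2:**
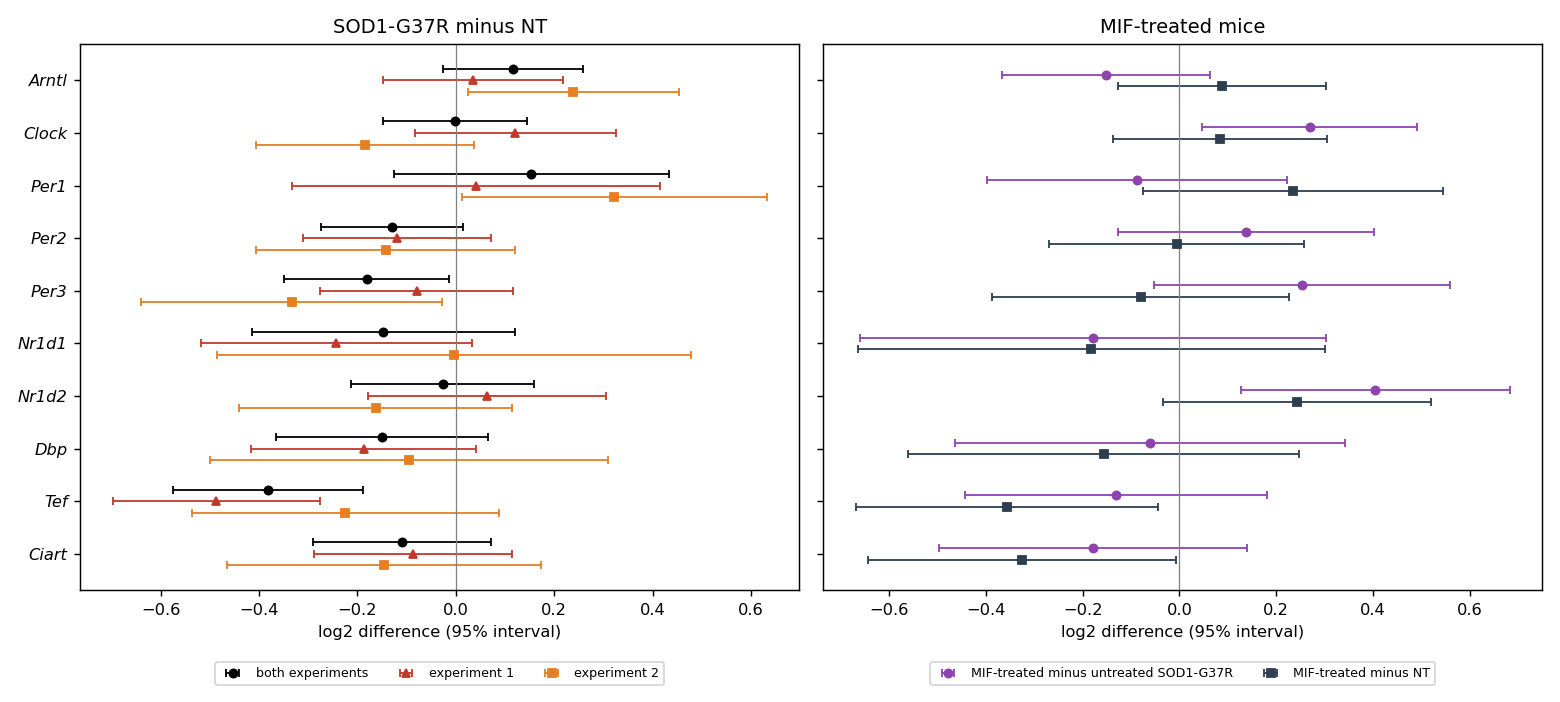
Difference in log2 level (horizontal axis, 95% interval from limma) for each clock gene. Left, SOD1-G37R minus NT in both experiments, experiment 1 and experiment 2; right, MIF-treated minus untreated SOD1-G37R and MIF-treated minus NT. Tef at -0.38 is the one member called in both experiments together, and at -0.49 in experiment 1.

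Of the activators, Arntl had a lowest level of 3.62, a median of 4.02 and a highest of 4.24 in 10 SOD1-G37R mice, against 3.682, 3.884 and 3.997 in 10 NT mice. The difference was 0.12 (adjusted p = 0.236 by limma), with an interval of -0.03 to 0.26. Clock, its partner, had a median of 1.53 in SOD1-G37R mice and 1.55 in NT mice, and a difference of -0.00 (interval -0.15 to 0.15).

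The period genes, repressors of that pair, had different signs. Per1, which also answers to glucocorticoids and neuronal activity, had a median of 5.47 in SOD1-G37R mice and 5.28 in NT mice, with a difference of 0.15 (interval -0.13 to 0.43). Per2 had a median of 1.73 in SOD1-G37R mice and 1.82 in NT mice, with a difference of -0.13 (interval -0.27 to 0.01). Per3 had a lowest level of 2.27, a median of 2.59 and a highest of 2.91 in SOD1-G37R mice, against 2.499, 2.787 and 3.159 in NT mice. The Per3 difference was -0.18 (adjusted p = 0.108 by limma), and with Tef it made 2 members at an unadjusted p under 0.05, beside 36.1% of all genes. Both Per2 and Per3 passed once each mouse was centred on its median gene, at -0.20 (adjusted p = 0.0313) and -0.25 (adjusted p = 0.0183), a step that moved the median of all genes by less than 0.1, to -0.07. Per3 also passed after quantile normalization.

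The remaining members, all known targets of ARNTL and CLOCK, had intervals that spanned 0. Nr1d1 had a median of 7.38 in SOD1-G37R mice and 7.51 in NT mice, with a difference of -0.15 (interval -0.41 to 0.12). Nr1d2, its paralog, differed by -0.03 (interval -0.21 to 0.16). Dbp had a median of 7.15 in SOD1-G37R mice and 7.32 in NT mice, with a difference of -0.15 (interval -0.37 to 0.07). Ciart, which encodes a repressor of the activator pair also known as CHRONO, differed by -0.11 (interval -0.29 to 0.07). The interval of Nr1d1 includes the -0.38 measured for Tef, and that of Dbp ends just short of it, at -0.37. The Tef value has an error of its own, and whether these members differed from Tef was not tested.

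The next question was whether the genotypes differed by phase in one experiment and not in the other. No member was called in experiment 2 by limma, where 3.83% of all genes were called, or 595, which ranged from 308 without SOD1-G37R male 3 to 856 without SOD1-G37R male 4. At an unadjusted p under 0.05 there were 3 members, beside 16.3% of all genes. These were Arntl at 0.24 (adjusted p = 0.237), Per1 at 0.32 (adjusted p = 0.279) and Per3 at -0.33 (adjusted p = 0.251). Arntl had levels of 4.07, 4.14, 4.05 and 3.99 in the 4 SOD1-G37R males, against 3.995, 3.814, 3.682 and 3.801 in the 4 NT males. Only NT male 1 reached the range of the SOD1-G37R males. Dbp and Nr1d1, whose phase is opposite to that of Arntl in a running clock, differed by -0.10 (interval -0.50 to 0.31) and -0.00 (interval -0.49 to 0.48) in the same mice.

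Clock was the member whose genotype difference changed most between the experiments. In the males of experiment 1 its levels were 1.84, 1.79 and 1.57 in 3 SOD1-G37R mice, against 1.344, 1.502 and 1.412 in 3 NT mice, and 14.8% of all genes lay higher without overlap there. In experiment 2 they were 1.45, 1.42, 1.38 and 1.52 in 4 SOD1-G37R mice, against 1.74, 1.68, 1.57 and 1.53 in 4 NT mice, and 3.07% of all genes lay lower without overlap. Clock thus separated the genotypes without overlap in the males of each experiment, in opposite directions, which 9 of all 15524 genes (0.058%) did. The gap in experiment 2 was narrow, with the nearest mice at 1.525 (SOD1-G37R male 4) and 1.532 (NT male 4). Clock also had the lowest mean level of the members, at 1.58. The interaction was -0.50 ± 0.14, with an adjusted p of 0.999 by limma. No gene of the table passed that test, and 554 had an unadjusted p under 0.05, which was 3.57% of all. Arntl had an interaction of 0.34 ± 0.15 (adjusted p = 0.999), and these were the 2 members with an unadjusted p under 0.05. In the 3 females of each genotype Clock overlapped, at 1.70, 1.33 and 1.54 in SOD1-G37R mice and 1.53, 1.66 and 1.58 in NT mice.

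A shift in phase between the experiments would move members with opposite signs in both genotypes. In untreated males, with genotype in the model, Dbp was 0.23 ± 0.13 higher in experiment 2 than in experiment 1 and Ciart 0.21 ± 0.11, both with an adjusted p of 1 by limma. Arntl differed by 0.09 (interval -0.09 to 0.26) and Nr1d1 by 0.12 (interval -0.23 to 0.48). No member was called and none had an unadjusted p under 0.05, beside 0 called and 114 (0.734%) of all genes. The authors had removed the difference between experiments before deposit, so a shift shared by all mice of an experiment could not be seen.

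The sexes were compared in experiment 1. No member was called by limma for sex or for its product with genotype, and no gene of the table was, with 1416 (9.12%) and 673 (4.34%) genes at an unadjusted p under 0.05. Arntl had levels of 4.001, 4.239 and 4.134 in SOD1-G37R females, against 3.92, 3.87 and 3.62 in SOD1-G37R males. Those groups did not overlap, as for 5.87% of all genes in that direction, while the NT females at 3.97, 3.89 and 3.99 overlapped the NT males at 3.881, 3.997 and 3.848. Tef separated the SOD1-G37R sexes as well, lower in females as 5.61% of all genes were. The Arntl difference of females from males was 0.18 (adjusted p = 0.555), and its interaction with genotype 0.28 ± 0.16 (adjusted p = 0.993). The one member with an unadjusted p under 0.05 was Clock, for the interaction, at -0.38 (adjusted p = 0.993).

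The vector was compared with no treatment in SOD1-G37R males. No member was called by limma, and 1 gene of the table was, or 0.00644%. At an unadjusted p under 0.05 there were 2 members, Nr1d2 and Clock, beside 511 genes (3.29%). Nr1d2 had levels of 3.59, 3.76, 3.38 and 3.62 in the 4 MIF-treated mice, against 2.97, 3.48, 3.07 and 3.20 in the 4 untreated SOD1-G37R mice and 3.61, 3.21, 3.22 and 3.33 in the 4 NT mice. All groups overlapped, the third MIF-treated mouse lying below untreated male 2. The difference of MIF-treated from untreated mice was 0.41 ± 0.13 (adjusted p = 1), and that from NT mice 0.24 (adjusted p = 0.435).

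Clock lay at 1.77, 1.66, 1.51 and 1.91 in the MIF-treated mice, above 3 of the 4 untreated SOD1-G37R mice in every case. Its difference was 0.27 from untreated SOD1-G37R mice (adjusted p = 1) and 0.08 from NT mice (adjusted p = 0.788). Both comparisons share the same MIF-treated mice. The intervals of the other 8 members spanned 0, with Per3 at 0.25 and Arntl at -0.15 from untreated mice.

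Tef was low in MIF-treated mice as well. It lay at 7.41, 7.30, 7.51 and 7.36, below all 4 NT males of experiment 2, which 3.17% of all genes did. The difference from NT was -0.36 ± 0.15 (adjusted p = 0.261 by limma) and the difference from untreated SOD1-G37R mice -0.13 (interval -0.44 to 0.18, adjusted p = 1). Without SOD1-G37R male 1 the difference from untreated SOD1-G37R mice was 0.02. Ciart lay at 3.39, 3.48, 3.49 and 3.22 in MIF-treated mice, against 4.02, 3.95, 3.27 and 3.63 in NT mice, a difference of -0.32 (adjusted p = 0.332). Among all genes, 3.11% were called against NT, and no member was.

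Phase between single mice was examined from the deviation of each mouse from the mean of its subgroup of like sex, genotype, treatment and experiment. Were the mice sampled at different phases, Arntl would be expected to run against Dbp and Nr1d1. Over 24 mice, r was 0.04 between Arntl and Dbp, -0.26 between Arntl and Nr1d1 and 0.41 between Arntl and Nr1d2. Of the 16 pairs that join Arntl or Clock to another member, 7 had r below 0 and 0 had r of -0.5 or lower. Of the 28 pairs among the other members, 14 had r above 0. All 24 mice come from a single table that the authors had corrected for experiment, and the values are descriptions.

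**Figure D3:**
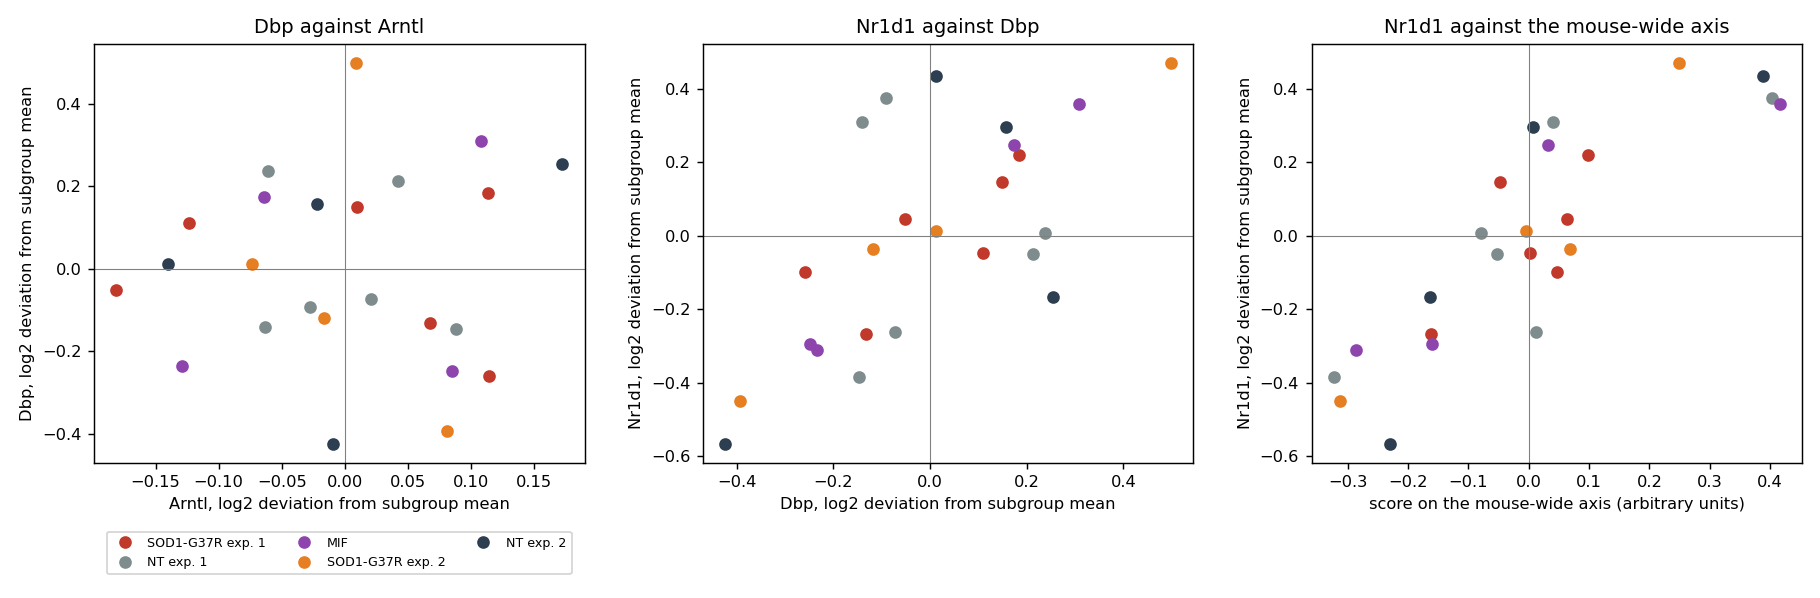
Each point is 1 of 24 mice, plotted as the log2 deviation from the mean of its subgroup. Left, Dbp against Arntl (r = 0.04); middle, Nr1d1 against Dbp (r = 0.67); right, Nr1d1 against the score on the mouse-wide axis (arbitrary units, r = 0.86).

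Arntl was steady for a gene of its level. Its SD within subgroups was 0.11 log2 units, the smallest of the 776 genes in its bin of level, whose median SD was 0.22. The SD of Nr1d1 was 0.35, above that of 96.5% of its bin, that of Per1 0.32 (94.1%) and that of Dbp 0.27 (91.8%). Clock, at 0.12, lay above 16.8% of its bin, and Per2, Per3, Nr1d2 and Ciart lay between 33.6% and 48.7%. The spread of Nr1d1 was 0.40 in experiment 2 and 0.28 in experiment 1, and that of Dbp 0.32 in experiment 2 and 0.20 in experiment 1, while that of Per1 was 0.22 in experiment 2 and 0.40 in experiment 1.

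The largest correlations were those of Nr1d1. It ran with Tef (r = 0.72) and Dbp (r = 0.67), and against Per2 (r = -0.67) and its own paralog Nr1d2 (r = -0.55). Nr1d2 ran against Tef as well (r = -0.66). In all, 5 of 45 pairs had an absolute r of 0.5 or more. The share over all pairs of genes was not computed, so this count cannot be set against the table at large. In a running clock, Nr1d1 and Nr1d2 are known to peak close together. Sums of cell type markers moved with these members over the same 24 mice. Nr1d1 had r = -0.61 with the neuron sum, 0.57 with the microglia sum and -0.47 with the Schwann cell and root sum. Dbp had r = -0.55 with the neuron sum, -0.41 with the oligodendrocyte sum and 0.39 with the microglia sum, and Nr1d2 had 0.54 with the Schwann cell and root sum. Their part in the correlations was not tested.

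A mouse-wide axis moved with these members. The first principal component of the same deviations, taken over genes above the median level, carried 24.7% of their variance, and 4045 genes (26.1%) had an absolute r of 0.5 or more with it. Nr1d1 had r = 0.86 with this axis, Tef 0.70, Nr1d2 -0.68, Per1 0.50 and Dbp 0.48, while Arntl had -0.19 and Ciart -0.07. Across 13470 genes with a coding transcript, r with the axis followed the GC content of the transcript (Spearman rho = 0.61) and its length (rho = -0.32), though genes are not independent replicates. Transcripts of Dbp, Per1 and Nr1d1 had 61.6%, 59.4% and 56.8% GC, against 41.8% for Nr1d2, 40.9% for Clock and a median of 50.7%. The axis was built from deviations from subgroup means, so adding it to the model could not move a genotype difference and could only change its error. With it, the Tef difference of -0.38 had an adjusted p of 0.000191 by limma. Tef was itself among the genes that built the axis, so this smaller p adds no support to the Tef call.

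With the axis removed, 2 pairs kept an absolute r of 0.5 or more, Nr1d1 with Dbp (0.58) and Nr1d1 with Per2 (-0.62). Nr1d1 with Tef had 0.33 and Nr1d1 with Nr1d2 0.07. The SD of Dbp then lay above 94.3% of its bin, that of Per1 above 94.6% and that of Nr1d1 above 81.6%. Arntl remained among the least variable, with 0.515% of its bin at or below it.

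**Figure D4:**
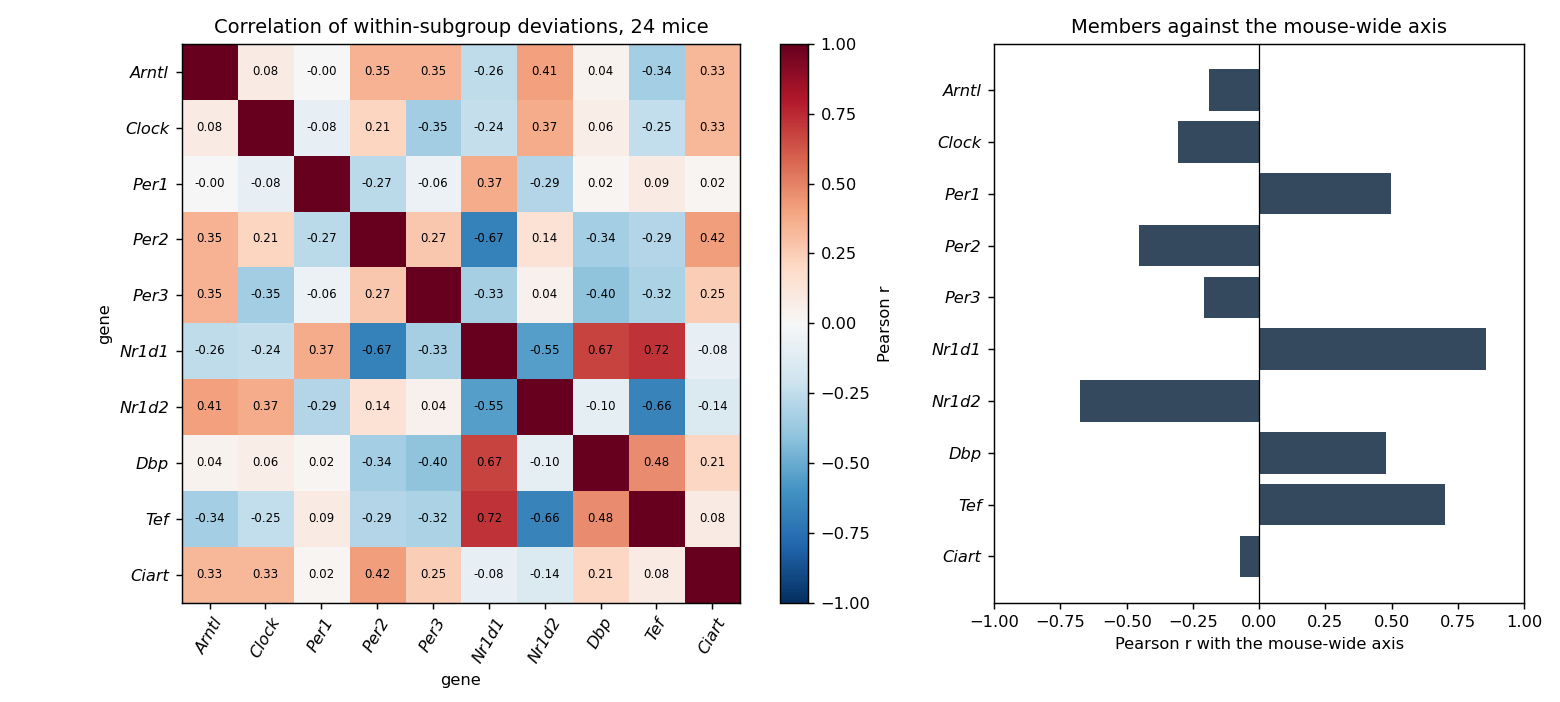
Left, Pearson r between the within-subgroup log2 deviations of each pair of clock genes over 24 mice, with values in the squares. Right, r of each gene with the mouse-wide axis, from 0.86 for Nr1d1 to -0.68 for Nr1d2.

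Slopes on Arntl and on Dbp were then tested over the whole table. No gene varied with Arntl at an adjusted p under 0.05 by limma, and 535 (3.45%) did so at an unadjusted p under 0.05, none of them a member. The member of smallest p was Nr1d2, with a slope of 0.79 (adjusted p = 0.998). The genes of smallest p included Gm6317, Ddit4l, Mustn1, Pak2, Zfp653, Gm5138 and Gm17322, each with an adjusted p of 0.998. No gene varied with Dbp after adjustment either, and 1594 (10.3%) did before it. Nr1d1 had a slope of 0.86 ± 0.22 on Dbp (adjusted p = 0.293) and Tef one of 0.37 (adjusted p = 0.462), the 2 members under 0.05 before adjustment, and with the axis in the model the slope of Nr1d1 was 0.44. The 8 genes of smallest p for Dbp were Gria3, Tnni1, 2610306M01Rik, Grap, Ccar1, Mrpl37, Phtf1 and Gkap1, with adjusted p-values from 0.135 to 0.195.

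The difference between Dbp and Arntl within a mouse gives 1 value per animal. It averaged 3.30 ± 0.27 in MIF-treated mice (SD, n = 4), 3.13 ± 0.33 in untreated SOD1-G37R mice (SD, n = 10) and 3.40 ± 0.26 in NT mice (SD, n = 10). It ran from 2.53 to 3.70 in SOD1-G37R mice and from 2.98 to 3.73 in NT mice, so the groups overlapped nearly throughout. By experiment it averaged 3.08 in SOD1-G37R and 3.30 in NT mice of experiment 1, and 3.21 in SOD1-G37R and 3.55 in NT mice of experiment 2. It was lowest at 2.53 in SOD1-G37R female 2 and highest at 3.73 in NT male 4 of experiment 2. No test was run on this value.

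Single genes most like a member, by the absolute r of the same deviations over 24 mice, were mostly no clock genes. Nr1d1 was most like Slc25a39 (r = 0.93), Tbkbp1 (0.91) and Epn1 (0.89), Tef most like Kbtbd4 (-0.88) and Aamp (0.86), and Arntl most like Ddit4l (0.76). Among all genes by likeness to Dbp, Nr1d1 ranked 91. By likeness to Nr1d1, Tef ranked 522, Per2 882, Dbp 897 and Nr1d2 2426, so many genes outside the clock ran closer to Nr1d1 than these members did. For some members the counted ends overlap another gene in GENCODE M21, and whether counting used strand is not given in the sources used here. The end of Nr1d1 overlaps Thra on the other strand by 1075 bases, and Thra had r = 0.53 with Nr1d1. That of Dbp overlaps Sphk2 by 737 bases, with r = 0.07. Ciart lies opposite C920021L13Rik. Per3 lies wholly within Camta1 on the same strand, its end included, so strand alone would not tell these genes apart.

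Of 21 further genes of the clock pathway, 5 rose and 3 fell in SOD1-G37R mice, 13 had no call, and the median difference was 0.05, beside 14.8% of all genes called higher and 11.8% called lower. Bhlhe40 (DEC1), a repressor at E-boxes, rose with a lowest level of 5.58, a median of 5.80 and a highest of 6.17 in SOD1-G37R mice, against 5.11, 5.48 and 5.77 in NT mice. Its difference was 0.39 ± 0.10 (adjusted p = 0.00373 by limma). Nfil3, the repressor at D-boxes, rose by 0.35 (adjusted p = 0.00664), with levels of 3.74 to 4.46 in SOD1-G37R mice and 3.50 to 4.10 in NT mice. Rorb, a receptor gene of the family that activates at RREs, rose by 0.26 (adjusted p = 0.00816).

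Hlf, the third PAR bZIP gene beside Tef and Dbp, fell. It had a lowest level of 5.01, a median of 5.42 and a highest of 5.68 in SOD1-G37R mice, against 5.37, 5.69 and 6.14 in NT mice, a difference of -0.34 ± 0.10 (adjusted p = 0.0169 by limma). In MIF-treated mice Hlf differed by -0.00 from untreated SOD1-G37R mice and by -0.39 from NT mice (adjusted p = 0.243). Cry2, which encodes a partner of the PER proteins, fell by 0.20 (adjusted p = 0.0297), and Gsk3b, a kinase gene, fell by 0.25 (adjusted p = 0.0184).

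**Figure D5:**
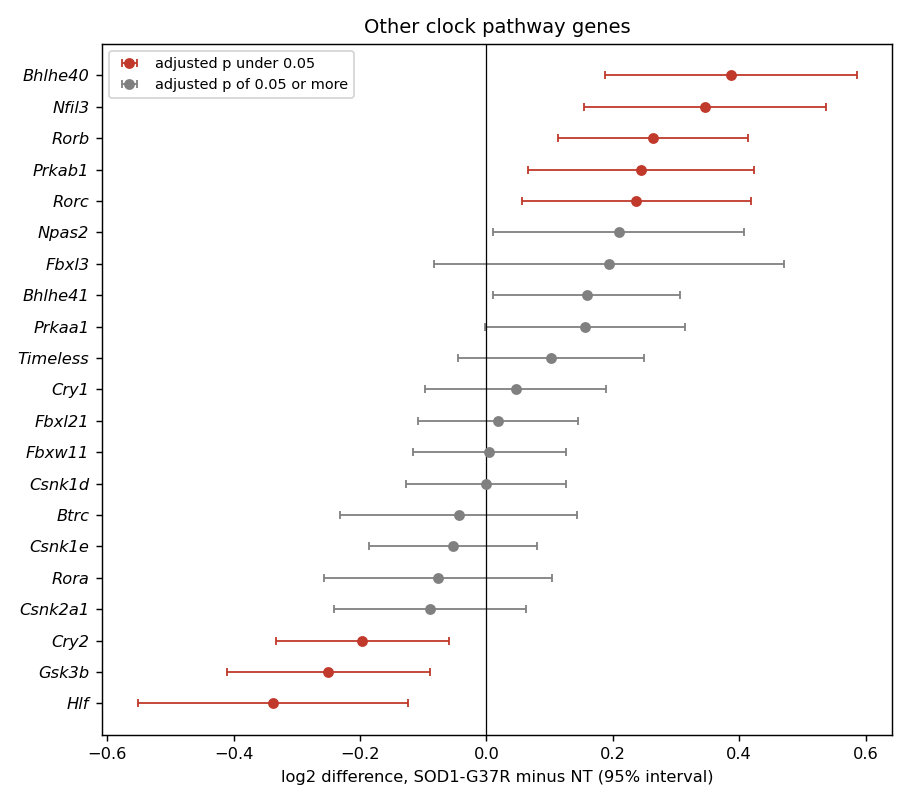
Difference in log2 level between 10 SOD1-G37R and 10 NT mice (horizontal axis, 95% interval from limma) for 21 further clock pathway genes; red marks an adjusted p under 0.05. Bhlhe40 at 0.39 and Nfil3 at 0.35 lie at the top and Hlf at -0.34 at the bottom.

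In experiment 1 alone, 5 of the 21 rose and 0 fell, and in experiment 2 and in MIF-treated against untreated mice none was called. In males alone 3 of the 8 calls stood, Bhlhe40, Nfil3 and Hlf. After centring each mouse on its median gene 6 stood, and none of the 8 changed sign under median centring or quantile normalization.

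Of 8 genes known in other tissues as outputs of the clock, 3 rose and 1 fell, beside the 26.5% of all genes called. Tspan4, a tetraspanin gene, rose by 1.05 (adjusted p = 7.12e-09 by limma), with no overlap between 6.55 to 7.19 in SOD1-G37R mice and 5.49 to 6.10 in NT mice, as for 3.23% of all genes in that direction. Lonrf3 rose by 0.25 and Usp2 by 0.19, and Wee1, a cell cycle kinase gene, fell by 0.21. In males alone Tspan4 was the one still called, and after median centring Usp2 had 0.12 and no longer passed (adjusted p = 0.16).

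Genes that respond to glucocorticoids, which also drive Per1, had no shared direction. Of 9, 4 rose and 1 fell, and the same 26.5% of all genes were called. The metallothionein genes Mt2 and Mt1 rose by 1.72 and 1.55, Cdkn1a by 0.71 and Pdk4 by 0.49, while Tsc22d3 (GILZ) fell by 0.63, and Fkbp5 had 0.14 (adjusted p = 0.388). Of 9 immediate early genes 4 rose, Junb by 0.81, Fos by 0.59, Btg2 by 0.39 and Ier2 by 0.36, and Arc fell by 0.46. Of 6 genes that respond to temperature, a signal that also sets the clock, Dnajb1 fell by 0.23 and the cold-inducible Cirbp and Rbm3 had -0.10 and 0.15 (adjusted p = 0.272 and 0.229). None of these lists had a call in MIF-treated against untreated mice.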

How the data were processed

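Lumbar spinal cord RNA of 24 mice was read by MARS-seq. The submitters' processing notes name Trim Galore 0.4.5, cutadapt 1.15, STAR 2.5.2a for alignment to GRCm38 and RSEM 1.2.28 for counting. Whether molecular tags were collapsed is not given in the sources used here. The deposited log2 values had been batch-corrected by the authors, with a transform that is not stated, and ran from -0.79 to 14.8, with 2.22% below 0. They are not counts, so limma 3.58.1 (R 4.3.3) was run on them as deposited for all 15524 genes, with no filter and no trend, and with Benjamini-Hochberg adjusted p under 0.05 as a call. Columns with the authors' own test results were not used. Both experiments were fitted with experiment as a term, experiment 1 with sex, and experiment 2 with its 3 groups sharing 1 spread. Slopes on Arntl and Dbp were fitted over 24 mice with a mean for each of 7 subgroups. Replicates are separate mice of a group, as labelled, and p-values measure the spread between them. The members and lists were chosen with earlier results of these data known. Named genes were the members, genes called in the lists (up to 6 a list by smallest p), the 8 of smallest p for each slope (1 is not reported here) and those most alike. The table itself named 13809 genes, and 1711 were named from the reference. The fits were tested on simulated data. Alternatives were median centring, quantile normalization, a level filter, a trend, males alone, each mouse left out, a replicate block and, chosen after seeing the data, the mouse-wide axis as a covariate.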

Additional observations from a re-analysis of the deposited data

Results flagged for a closer look

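A mouse stood apart from its group in 7 of 70 groups looked at, where chance gives about 1 in 20. The groups are nested and share mice, so the same mouse counts more than once and no excess over chance is read from this. SOD1-G37R male 1 of experiment 2 was highest of the 10 SOD1-G37R mice for Nr1d1 at 8.04 (the next mouse at 7.58) and for Dbp at 7.78 (next 7.29), and lowest of its 4 for Per3 at 2.27 (next 2.58). The summed blood marker level of this mouse was 11.0, against 9.86 in SOD1-G37R male 2 and 5.75 to 8.49 in the other 8, and its part was not tested. NT male 5 was highest for Tef at 8.21, among both the 6 NT mice of experiment 1 (next 7.79) and all 10 NT mice (next 7.86). SOD1-G37R male 7 was highest of the 6 SOD1-G37R mice of experiment 1 for Tef at 7.51 (next 7.33). SOD1-G37R male 2 was lowest of the 4 SOD1-G37R males of experiment 2 for Ciart at 3.31 (next 3.64). Clock separated the genotypes in males in opposite directions in the experiments, with an interaction of -0.50 that had an adjusted p of 0.999 by limma.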

How the results depend on the processing

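The count of members called between SOD1-G37R and NT mice was 1, and became 3 after median centring (Per2, Per3 and Tef), 2 after quantile normalization (Per3 at -0.22, adjusted p = 0.045, and Tef) and 0 in males alone, where fewer mice were fitted. Leaving out each mouse in turn kept 1 call, with Tef between -0.45 and -0.33. With a replicate block the count was 1 and Tef had an adjusted p of 0.00557, and the block changed no other count of members called. Whether the replicate numbers pair the mice is not known. Of 18 pairs with the same number, 6 had r over 0.1 (median r 0.06), beside 12 of 48 pairs with different numbers (median r -0.02). These values cannot decide it, as the 2 sets overlap widely. In MIF-treated against untreated SOD1-G37R mice the same-numbered pairs had r of 0.48, 0.14, 0.33 and 0.09, and 2 of the 4 MIF-treated mice ran best with the untreated mouse of their own number. No called value of a member changed sign in the alternatives run, and 127 of 2261 recomputed values changed sign with no call in either fit. Over all genes, males alone gave 1506 higher and 938 lower calls, and median centring gave 1464 and 2559 in experiment 1, against 2030 and 1720. The axis as a covariate gave 704 and 245 calls in experiment 2, against 521 and 74. Experiment 2 without NT male 1 or NT male 4 gave 373 or 344 calls. MIF-treated against NT mice gave 483 calls, 276 without MIF-treated male 3 and 304 without NT male 4. MIF-treated against untreated mice gave 0 to 3 calls, sex 0 to 5 and slopes on Dbp 0 to 2, with no member among them. Depth per mouse is unknown, low levels may be compressed, and the batch correction limits what can be said of the experiments.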
